A study of Homo sapiens with 6 samples.

Results

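The genes described here encode the secreted Wnt ligands, the Frizzled receptors that bind them at the cell surface, and the secreted inhibitors of both. They were chosen by their gene symbols, as all symbols of the array that name a WNT, FZD, SFRP or DKK family member or WIF1. This gave 38 of the 81496 gene symbols on the array, measured by 42 probe sets. They were 19 Wnt ligands, 10 Frizzled receptors, 4 secreted Frizzled-related proteins, 4 Dickkopf inhibitors and WIF1. Where a gene had more than 1 probe set, the probe set with the highest mean level on the 5 compared arrays represents it.

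The arrays compared MCF10.AT1 with MCF10.AT1-R. MCF10.AT1 is a human preneoplastic breast epithelial line of the MCF10A series, derived from MCF10A cells carrying an activated HRAS, and is labelled sensitive to fluvastatin and untreated. MCF10.AT1-R is labelled resistant and was selected from MCF10.AT1 in rising doses of fluvastatin, an inhibitor of the rate-limiting enzyme of cholesterol synthesis, from 1 and 5 µM up to 20 µM. Whether the drug was still present when RNA of MCF10.AT1-R was taken is not stated, and 1 treatment text is attached to the samples of both lines. MCF10.AT1-R is a single derived line, so its 3 arrays, labelled biological replicates, are replicates of that line and not of the selection. Both lines share the MCF10A background. Total RNA was hybridised to Clariom D arrays, which measure transcripts with short oligonucleotide probes summarised into probe sets. The deposited values are log2 values made by RMA, a method of background correction, quantile normalization and probe summarisation. Arrays A01 and A02 of MCF10.AT1 were compared with arrays B02, B03 and B04 of MCF10.AT1-R. The third MCF10.AT1 array, A03, was removed as an outlier in the study's methods and is given apart.

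Wnt proteins carry a lipid added by PORCN and leave the cell with the carrier WLS. In the canonical branch a Wnt protein joins a Frizzled receptor to the coreceptor LRP5 or LRP6, β-catenin escapes destruction, and TCF/LEF factors switch on target genes. Other Wnt proteins signal through Frizzled, ROR or RYK receptors without β-catenin. SFRP proteins and WIF1 bind the ligand itself, while DKK1 binds LRP5 and LRP6 and blocks the canonical branch alone. In the mammary gland Wnt signals are known for maintaining basal and progenitor cells and for branching of the ducts.

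TCF/LEF factors recognise a core of the letters CTTTGA, which was searched on both strands in RefSeq promoters of GRCh38.p14. All 38 genes had a RefSeq gene entry and 26 had a promoter, each a window of 300 bases from 250 before to 50 after a transcription start. The core was in 12.9% of all 35116 promoters, in 1 of the 29 promoter entries of the 26 genes, and in 3 of 56 entries of the other Wnt pathway genes. The following promoters are printed on the strand of the gene with each core, read on either strand, in capitals. DKK1 is shown because it is the single gene of the 26 with a promoter whose window holds the core, at 149 and 95 bases before the start (chr10:52314031-52314330, plus strand). SP5, a transcription factor and reported target, is shown as the pathway gene with 3 cores, at 147, 109 and 83 bases before the start (chr2:170715087-170715386, plus strand). WNT10A, the ligand with the lowest p-value between the lines, had no core in the window (chr2:218880602-218880901, plus strand). RNF43, which had the largest change among the other pathway genes, is listed with 2 promoters (chr17:58417485-58417784 and chr17:58402672-58402971, minus strand), neither with the core.
DKK1: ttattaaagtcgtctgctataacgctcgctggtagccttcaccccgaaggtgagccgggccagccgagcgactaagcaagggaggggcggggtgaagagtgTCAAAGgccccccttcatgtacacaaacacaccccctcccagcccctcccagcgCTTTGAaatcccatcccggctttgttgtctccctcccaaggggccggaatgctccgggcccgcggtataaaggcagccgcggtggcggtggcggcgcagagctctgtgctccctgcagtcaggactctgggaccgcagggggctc
SP5: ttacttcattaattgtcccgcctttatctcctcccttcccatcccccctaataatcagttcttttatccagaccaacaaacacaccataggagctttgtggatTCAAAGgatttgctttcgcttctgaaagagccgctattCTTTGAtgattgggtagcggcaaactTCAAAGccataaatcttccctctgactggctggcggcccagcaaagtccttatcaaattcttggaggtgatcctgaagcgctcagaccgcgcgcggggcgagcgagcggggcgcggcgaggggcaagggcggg
WNT10A: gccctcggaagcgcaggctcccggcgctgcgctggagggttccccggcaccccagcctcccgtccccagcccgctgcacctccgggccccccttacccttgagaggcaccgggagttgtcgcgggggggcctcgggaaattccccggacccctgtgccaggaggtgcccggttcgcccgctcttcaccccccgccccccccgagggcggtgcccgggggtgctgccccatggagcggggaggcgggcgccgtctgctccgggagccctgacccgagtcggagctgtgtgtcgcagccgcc
RNF43 upstream start: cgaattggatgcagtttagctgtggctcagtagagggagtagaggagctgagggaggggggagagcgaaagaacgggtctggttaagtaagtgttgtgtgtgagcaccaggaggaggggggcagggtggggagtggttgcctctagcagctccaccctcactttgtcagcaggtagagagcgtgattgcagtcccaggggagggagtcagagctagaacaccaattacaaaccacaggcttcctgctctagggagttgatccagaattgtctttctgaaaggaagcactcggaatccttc
RNF43 downstream start: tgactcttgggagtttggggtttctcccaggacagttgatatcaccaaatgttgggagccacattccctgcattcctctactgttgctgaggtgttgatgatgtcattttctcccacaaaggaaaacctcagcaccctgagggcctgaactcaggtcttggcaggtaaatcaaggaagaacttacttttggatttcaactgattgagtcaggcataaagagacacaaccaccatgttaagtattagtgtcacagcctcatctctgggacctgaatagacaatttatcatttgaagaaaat
A match to these letters describes the sequence and is not a measured binding site.

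The background of each array was read from 612 negative control probe sets, whose 95th percentile lay between 2.88 and 3.14 on the log2 scale over the 5 arrays. Across all transcripts these 5 arrays correlated with each other at a Pearson r of 0.967 to 0.977, and A03 correlated with them at 0.779 to 0.795. Of the 5 markers of basal mammary epithelium reported here, 4 were higher in MCF10.AT1-R past an FDR of 5% in limma (KRT5, KRT14, KRT17 and TP63) and ITGA6 did not pass, and all 5 were above the controls in both lines. The sum of the log2 values of these 5 was 33.5 and 32.6 on the MCF10.AT1 arrays and between 43.1 and 43.8 on the MCF10.AT1-R arrays. Of the 6 matched markers of cornifying keratinocytes, 3 passed with higher values in MCF10.AT1-R (IVL, CDSN and KRT1), and the sum of the 6 was 19.3 and 19.0 against 24.0 to 26.1. FLG and LOR were not above the controls on every array of either line. Of the 6 luminal markers 2 passed, KRT8 and KRT19, both higher, and of the 7 fibroblast markers 1 passed, DCN, which was lower. The part of these marker changes in the values below was not tested. In bulk RNA a change in the share of a kind of cell and a change in RNA per cell cannot be told apart.

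Expression of this gene family was patchy in both lines. On every array of at least 1 line, 22 of the 38 genes (57.9%) lay above the control percentile, against 33.4% of all gene symbols. Of these, 18 were above it in both lines, 1 in MCF10.AT1 alone (WNT4) and 3 in MCF10.AT1-R alone (WNT1, WNT7A and WNT10A). The receptors were measured most completely, with 9 of 10 Frizzled genes above the controls in both lines and FZD9 in neither. Of the ligands, 10 of 19 were above in at least 1 line. Of the secreted inhibitors, SFRP1, DKK1 and DKK2 were above in both lines, whereas SFRP2, SFRP4, SFRP5, DKK3, DKK4 and WIF1 were in neither. The percentile is a lenient limit, and against the 99th percentile of the controls 6 of the 38 genes were above. They were WNT7B, WNT9B, FZD5, FZD6, SFRP1 and DKK1. WNT9B counted there through a probe set whose transcript is uncertain, as described below. Its other probe set read 4.10 on A01 and 3.67 on B02, below those arrays' 99th percentiles of 4.88 and 4.09. The share of all symbols above the 99th percentile is not given here.

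**Figure D1:**
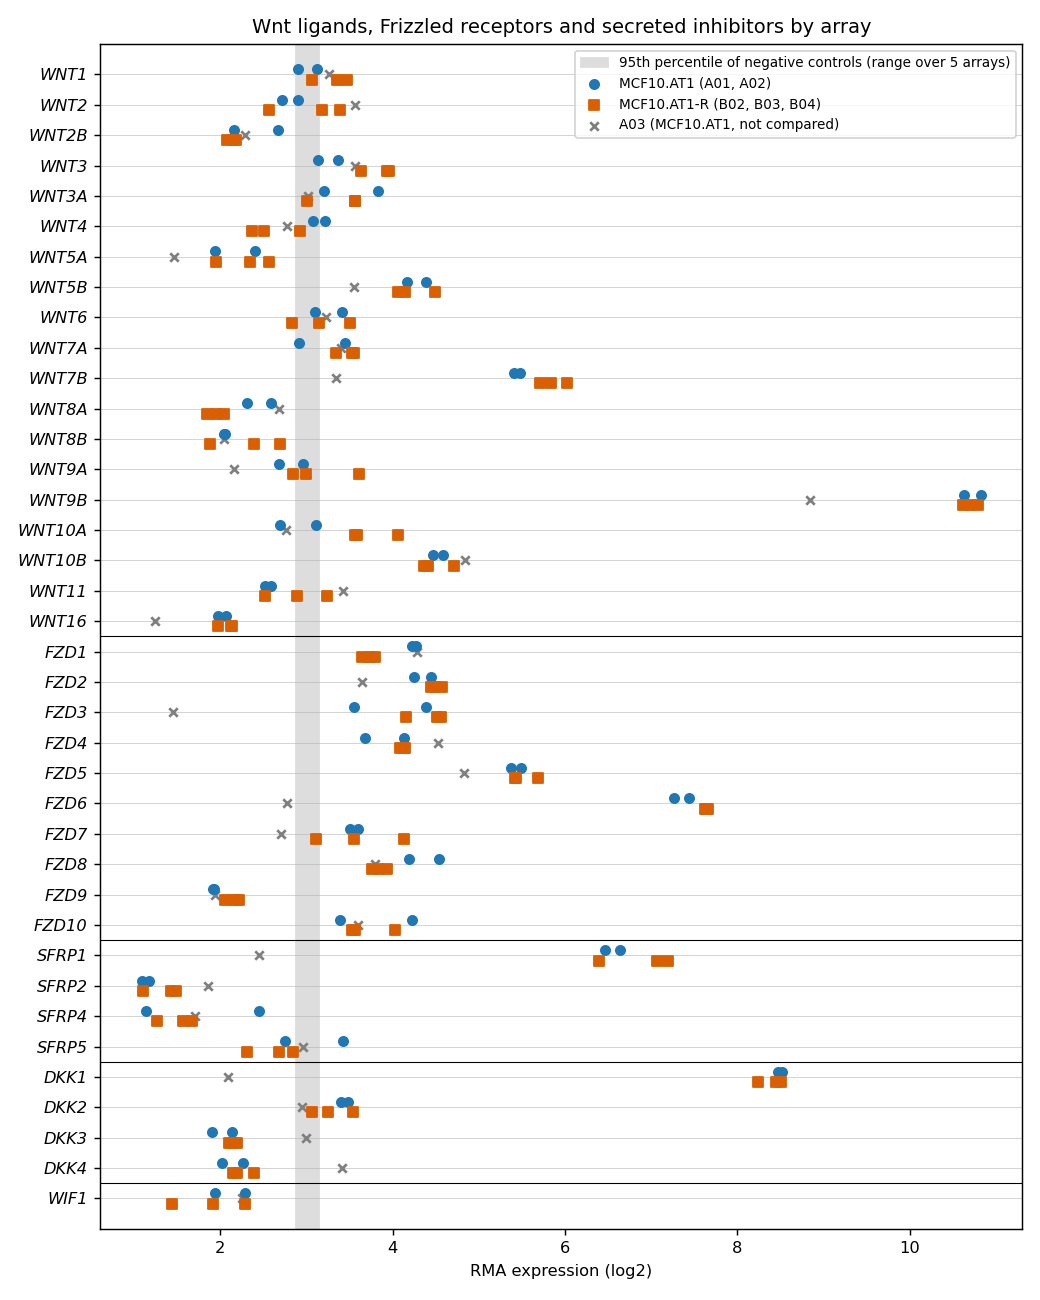
Log2 RMA value (x axis) of each of the 38 genes (y axis) on each array, with the range of the negative controls' 95th percentile over the 5 compared arrays in grey. Blue circles are the 2 MCF10.AT1 arrays, orange squares the 3 MCF10.AT1-R arrays and crosses A03. Most genes lie near the grey band, and on A03 DKK1, FZD6 and SFRP1 fall far to the left of the other arrays.

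No gene of the family passed an FDR of 5% between the lines. Of the 38 genes, 26 entered the limma fit, because 2 were removed for low values and 10 for invariance. Of the 26, 0 passed and 1 had an unadjusted p under 0.05 (WNT10A). Of all 35766 symbols tested, 542 passed (1.52%) and 3185 had an unadjusted p under 0.05. In a fit without filters, which holds all 38 genes, 0 passed, against 170 of 81496 symbols. In that fit 6 had an unadjusted p under 0.05 (WNT3, WNT4, WNT8A, WNT10A, FZD1 and FZD8), against 6126 of all symbols. The number passing was also 0 with limma's trend option, by which 3.47% of the tested symbols passed. The log2 change, MCF10.AT1-R minus MCF10.AT1, ranged from -0.55 for WNT4 to 0.84 for WNT10A over the 38 genes. It was positive for 22 of them and negative for 16, with a median of 0.09 against 0.005 over all symbols. For 10 genes the values of the lines were separate on the arrays, with no overlap, 6 higher and 4 lower in MCF10.AT1-R. The same held for 24.7% of all symbols, so 10 of 38 is near the background. With 2 arrays against 3, an exact two-sided permutation test of a single gene, with the smaller one-sided p doubled, cannot give a p below 0.2, and so few arrays limit how precisely any change is known.

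**Figure D2:**
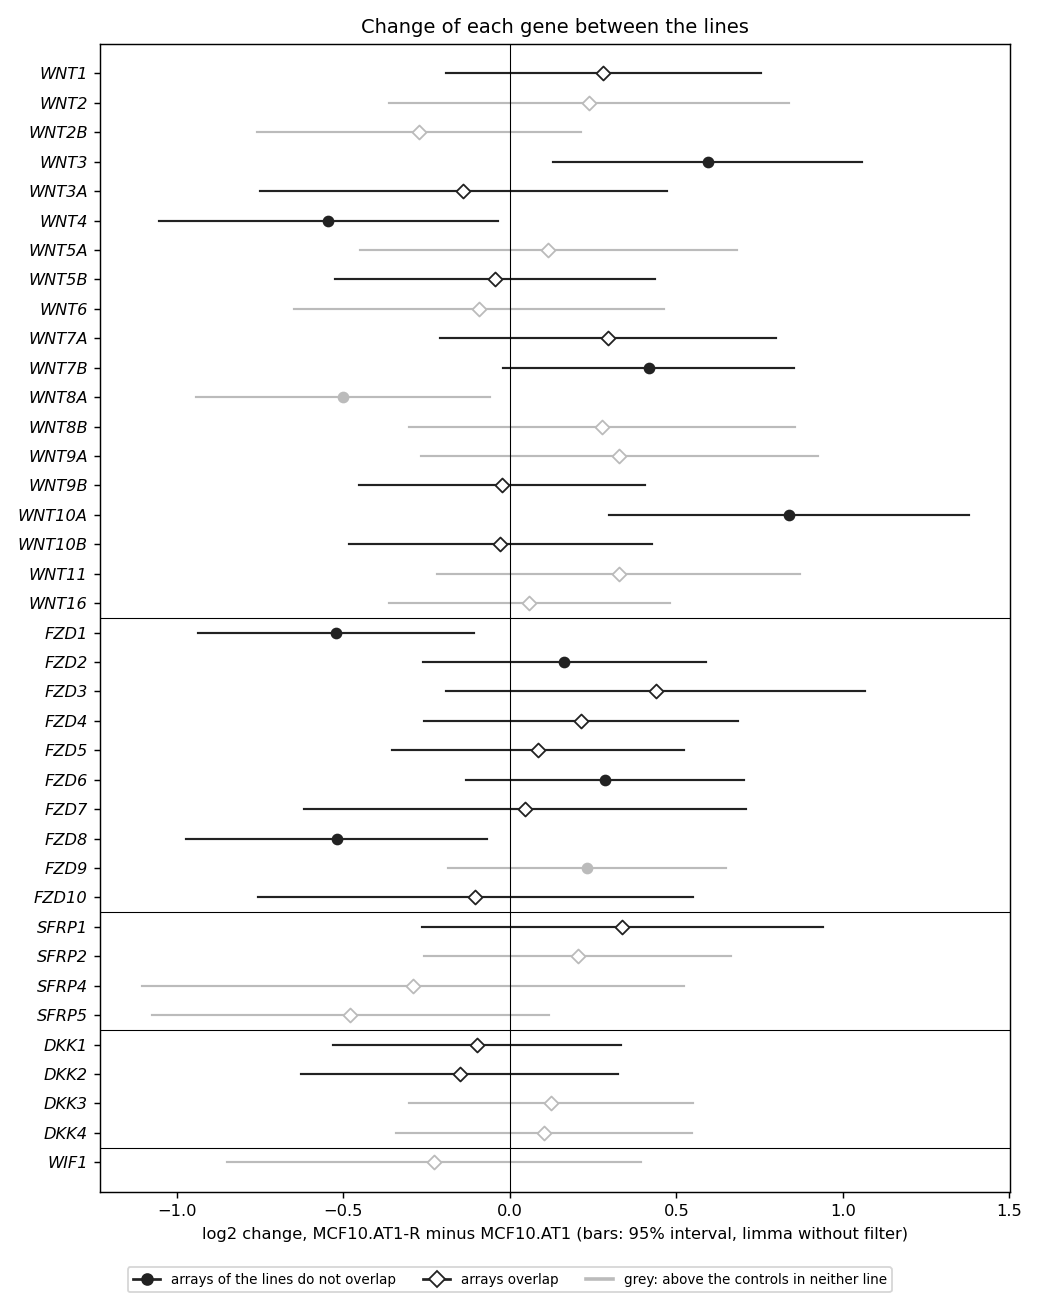
Log2 change between the lines (x axis, MCF10.AT1-R minus MCF10.AT1) for each of the 38 genes (y axis), with the 95% confidence interval of the limma fit without filters as a bar. Filled circles mark the 10 genes whose arrays do not overlap, open diamonds the others, and grey the 16 genes above the controls in neither line. The values run from -0.55 for WNT4 to 0.84 for WNT10A.

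Among the ligands, WNT10A, a canonical ligand known from skin appendages and teeth, had the largest difference. Its log2 values were 3.11 and 2.69 on A01 and A02, and 3.59, 4.06 and 3.56 on B02, B03 and B04. All 3 resistant arrays were above both parental ones, and neither parental value exceeded the controls of its array. The log2 change was 0.84 ± 0.31 (SE of the limma fit), with a 95% confidence interval from 0.23 to 1.45. Its adjusted p of 0.254 did not pass. This SE is the same for every tested gene, because the fit used a common SD of 0.34. In the fit without filters, which had no common SD, the interval of WNT10A ran from 0.30 to 1.38. The adjusted p was 0.213 with the trend option, 0.377 with the low-expression filter alone and 0.531 without filters. With the low values raised to the mean control percentile of 2.99, the change was 0.69. WNT6 lies next to WNT10A on chromosome 2 with no coding gene between them. Its values were 3.10 and 3.41 against 3.15, 3.51 and 2.83, overlapping between the lines, with a change of -0.09.

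WNT3, a canonical ligand, had values of 3.36 and 3.14 on the MCF10.AT1 arrays and of 3.63, 3.94 and 3.96 on the MCF10.AT1-R arrays, which did not overlap. Its change was 0.59 with an adjusted p of 0.627. A second probe set of WNT3 was not above the controls on any array, and its change was 0.08.

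WNT7B, a ligand expressed by many epithelia, was well above the controls in both lines. It read 5.41 and 5.47 in MCF10.AT1 and 5.71, 5.84 and 6.02 in MCF10.AT1-R. The arrays did not overlap, and the change of 0.42 had an adjusted p of 0.804. On A03 the value was 3.34.

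WNT4, the ligand that acts downstream of progesterone in the mammary gland, had a lower mean in MCF10.AT1-R. Its values were 3.21 and 3.08 in MCF10.AT1, just above the controls, and 2.51, 2.93 and 2.37 in MCF10.AT1-R, all below them. The change of -0.55 had an adjusted p of 0.687, and with low values raised to the control level it was -0.15.

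WNT9B had log2 values of 10.63 and 10.82 in MCF10.AT1 and of 10.61, 10.80 and 10.70 in MCF10.AT1-R, a change of -0.02 with a 95% confidence interval from -0.45 to 0.41. These came from probe set TC1700006471.hg.1. The other probe set that carries the symbol, TC1700008105.hg.1, read 4.10 and 4.32 against 3.67, 3.80 and 4.29, a change of -0.30. Successive numbers in these identifiers mostly belong to nearby genes on chromosome 17. Of 1080 successive pairs of coding symbols, 95.6% lie at most 20 coding genes apart. The numbers do not run in order along the whole chromosome. WNT3, with no coding gene between it and WNT9B, has probe sets TC1700012426.hg.1 and TC1700012427.hg.1. By number the second probe set of WNT9B sits among neighbours of WNT9B, with NSF, 1 coding gene away, just before it. The first sits between SCGB1C2 and TIMM22, which have 740 and 724 coding genes between them and WNT9B in RefSeq. Which transcript the first probe set measures was not tested, and its level is therefore given for the probe set and not for WNT9B.

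**Figure D3:**
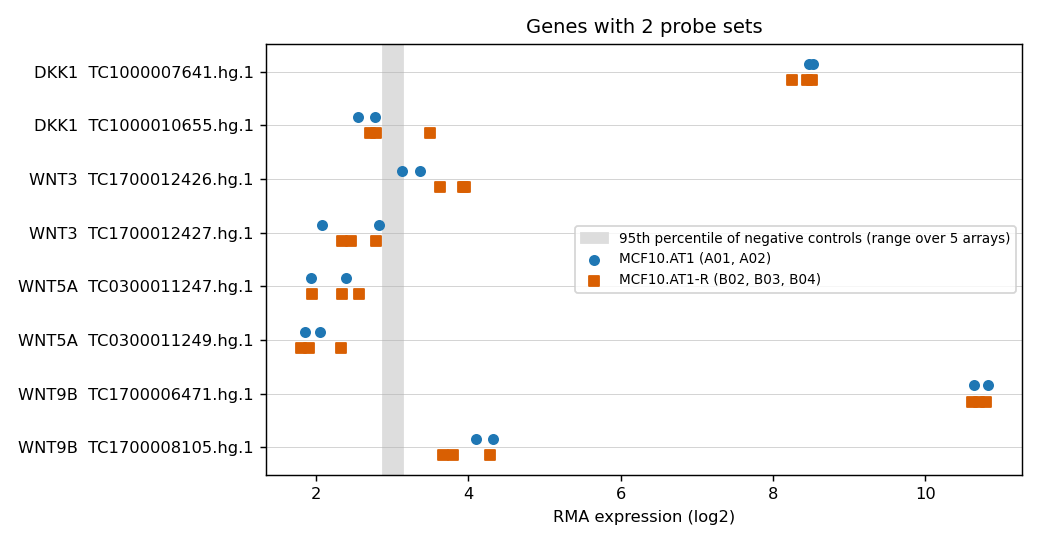
Log2 RMA value (x axis) of both probe sets of the 4 genes that have 2 (y axis, with the probe set's identifier), by array. Blue circles are MCF10.AT1, orange squares MCF10.AT1-R, and grey is the range of the controls' 95th percentile. For DKK1, WNT3 and WNT9B the ranges of the 2 probe sets are separate, and for WNT5A neither exceeds the controls.

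The other 14 ligands had overlapping arrays, except WNT8A, which was lower in MCF10.AT1-R by order (change of -0.50) but lay below the controls on all 5 arrays. WNT3A, WNT5B and WNT10B were above the controls in both lines, with changes of -0.14, -0.04 and -0.03. WNT1 and WNT7A, above the controls on every array of MCF10.AT1-R alone, had changes of 0.28 and 0.30 with overlapping arrays. On A02 they read 3.13 and 3.45, also above that array's limit of 3.03. WNT2, WNT2B, WNT5A, WNT6, WNT8B, WNT9A, WNT11 and WNT16 were not above on every array of either line, and their changes lay between -0.27 and 0.33. WNT5A, the best known ligand of the branch without β-catenin, has a pair of probe sets, and both stayed below the controls on all 5 arrays.

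Among the receptors, FZD6, which is linked to planar cell polarity, was far above the controls. Its values were 7.27 and 7.44 in MCF10.AT1 and 7.66, 7.64 and 7.63 in MCF10.AT1-R, which did not overlap. The change of 0.29 had a 95% confidence interval from -0.13 to 0.70 in the fit without filters, where the adjusted p was 0.831. FZD6 had been removed as invariant from the filtered fit. On A03 it read 2.78, below the controls.

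FZD1 and FZD8, receptors that can transmit canonical signals, had lower means in MCF10.AT1-R. FZD1 read 4.23 and 4.27 in MCF10.AT1 and 3.65, 3.74 and 3.79 in MCF10.AT1-R. The arrays did not overlap, and the change of -0.52 had an adjusted p of 0.720. FZD8 read 4.54 and 4.19 against 3.76, 3.84 and 3.93, again without overlap, with a change of -0.52 and an adjusted p of 0.722. Without filters the adjusted p was 0.653 for FZD1 and 0.699 for FZD8. Without A01 the change of FZD8 was -0.35.

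FZD2 values were 4.44 and 4.24 in MCF10.AT1 and 4.50, 4.57 and 4.45 in MCF10.AT1-R, a change of 0.16 that was small beside its interval from -0.26 to 0.59. Without A02 it was 0.07, and without A01 it was 0.26. FZD5, a receptor of canonical ligands in epithelia, had overlapping values of 5.37 and 5.49 against 5.42, 5.43 and 5.69, a change of 0.08. FZD3, FZD4, FZD7 and FZD10 were above the controls on all 5 arrays with overlapping values. Their changes lay between -0.10 for FZD10 and 0.44 for FZD3. FZD9 was below the controls on all 5 arrays, with a change of 0.23 and no overlap.

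Of the inhibitors, DKK1 and SFRP1 were well above the controls. DKK1, which blocks LRP5 and LRP6 and is itself a known target of canonical signalling, had values of 8.52 and 8.47 in MCF10.AT1 and of 8.51, 8.24 and 8.45 in MCF10.AT1-R. The lines overlapped, and the change of -0.10 had a 95% confidence interval from -0.53 to 0.33. With 1 array left out it ran from -0.15 without B02 to -0.02 without B03. A second DKK1 probe set, near the controls, read 2.78 and 2.55 against 3.50, 2.70 and 2.80, a change of 0.33. The promoter of DKK1 is the one printed above with a pair of TCF/LEF cores.

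SFRP1, which binds Wnt proteins and is often silenced in breast cancer, read 6.46 and 6.64 in MCF10.AT1 and 6.40, 7.19 and 7.07 in MCF10.AT1-R. B03 and B04 were above both parental arrays and B02 was below them. The change was 0.34 with an adjusted p of 0.835, and with 1 array left out it ran from 0.18 without B03 to 0.58 without B02. DKK2 was above the controls on all 5 arrays with a change of -0.15. SFRP2, SFRP4, SFRP5, DKK3, DKK4 and WIF1 were not above them on every array of either line, and their changes lay between -0.48 for SFRP5 and 0.20 for SFRP2. FRZB, which encodes a further member of the SFRP family under another symbol, was below the controls on all 5 arrays, with a change of 0.04.

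The rest of the pathway was examined with 58 other genes in 5 lists. All 58 were on the array, 43 were above the controls in at least 1 line, and 40 entered the filtered fit. An FDR of 5% was passed by 2 of them, both higher in MCF10.AT1-R, where 1.01% of the tested symbols passed in that direction. They were RNF43 and KREMEN1, which encode negative regulators at the cell surface. For 17 of the 58 there was no overlap between the lines, 13 higher and 4 lower, beside 24.7% of all symbols, and the median change was 0.04.

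RNF43, a ubiquitin ligase that removes Frizzled receptors from the membrane, rose in MCF10.AT1-R. It read 4.16 and 3.46 in MCF10.AT1 and 5.90, 4.98 and 5.68 in MCF10.AT1-R, without overlap. The log2 change of 1.71 had an adjusted p of 1.45e-05 in limma. KREMEN1, a coreceptor of DKK proteins that helps to remove LRP6, rose as well, from 3.58 and 3.07 to 4.35, 4.59 and 4.80, a change of 1.25 with an adjusted p of 0.00797. Both calls rest on the filtered fit, in which limma used a common SD of 0.34 for every probe set. Without filters the adjusted p was 0.180 for RNF43 and 0.178 for KREMEN1, with the low-expression filter alone it was 0.163 and 0.146, and without A02 it was 0.127 and 0.582. Leaving out B04 gave 0.0759 for KREMEN1, and adding A03 gave 0.718 for RNF43 and 0.777 for KREMEN1.

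**Figure D4:**
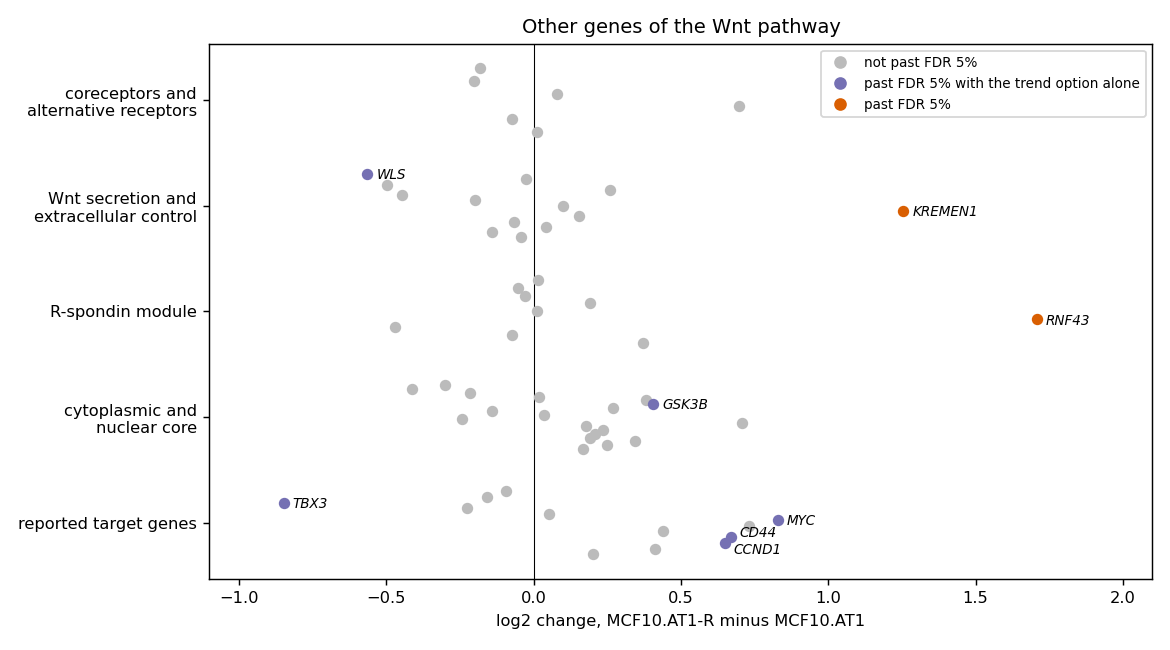
Log2 change between the lines (x axis, MCF10.AT1-R minus MCF10.AT1) of the 58 other Wnt pathway genes, 1 point per gene, by list (y axis). Orange marks RNF43 and KREMEN1, past an FDR of 5% in the filtered limma fit, and purple the 6 further genes past it with the trend option alone.

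With the trend option, in which the variance follows the level, 8 of the 58 genes passed, 6 higher and 2 lower, out of 40 tested and beside 3.47% of the tested symbols. Beside RNF43 and KREMEN1 these were GSK3B, CCND1, CD44 and MYC, all higher, and WLS and TBX3, both lower. None of these 6 passed in the filtered fit without the trend. WLS is counted by its probe set with the highest mean level, and its other probe set changed the other way, as given below.

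Of the 6 coreceptors and alternative receptors, 2 were tested, 0 passed in limma and 1 had an unadjusted p under 0.05 (PTK7). The change of PTK7 was 0.70 without overlap, with an adjusted p of 0.469. RYK read 7.69 and 7.77 in MCF10.AT1 and 7.42, 7.48 and 7.75 in MCF10.AT1-R, a change of -0.18. ROR1 had values of 6.80 and 6.86 against 6.79, 7.04 and 6.89, a change of 0.08. For LRP5, a canonical coreceptor, they were 6.45 and 6.09 against 6.21, 6.30 and 6.33, a change of 0.01. RYK, ROR1 and LRP5 overlapped between the lines.

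Of the 13 genes of Wnt secretion and extracellular control, 1 passed, KREMEN1. WLS, the carrier of Wnt proteins, read 7.76 and 7.74 in MCF10.AT1 and 7.34, 7.07 and 7.15 in MCF10.AT1-R, a change of -0.56 with an adjusted p of 0.668, and 0.0203 with the trend option. A second WLS probe set went the other way, with a change of 0.31. PORCN, the acyltransferase of Wnt proteins, had values of 4.98 and 5.13 against 4.50, 4.75 and 4.56, without overlap, a change of -0.45 with an adjusted p of 0.785. KREMEN2 read 3.97 and 4.26 against 3.94, 4.26 and 4.45, a change of 0.10.

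Of the 9 genes of the R-spondin module, in which R-spondins and LGR receptors hold back RNF43 and ZNRF3, 1 passed, RNF43. ZNRF3, the paralogue of RNF43, read 4.56 and 4.04 in MCF10.AT1 and 4.41, 4.48 and 4.05 in MCF10.AT1-R, overlapping, with a change of 0.01. RSPO1 and RSPO4 were above the controls on all 5 arrays with changes of 0.01 and -0.05. RSPO1 read 4.13 and 4.33 in MCF10.AT1 and 4.27, 4.10 and 4.36 in MCF10.AT1-R. For RSPO4 the values were 4.14 and 3.96 against 3.96, 4.10 and 3.94, and both genes overlapped between the lines.

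Of the 18 genes of the cytoplasmic and nuclear core, 13 were tested, 0 passed in limma and 1 had an unadjusted p under 0.05 (CTNNBIP1). The change of CTNNBIP1 was 0.71 without overlap, with an adjusted p of 0.447. GSK3B, a kinase that marks β-catenin for destruction, read 9.46 and 9.57 in MCF10.AT1 and 9.97, 9.85 and 9.94 in MCF10.AT1-R. The arrays did not overlap, and the change of 0.41 had an adjusted p of 0.808, and 1.77e-04 with the trend option. CSNK1A1, the kinase that primes β-catenin, had values of 9.63 and 9.66 against 9.91, 9.88 and 9.85, a change of 0.23. GSK3A, the paralogue of GSK3B, read 7.77 and 7.58 in MCF10.AT1 and 7.84, 7.87 and 8.13 in MCF10.AT1-R, without overlap. Its change of 0.27 did not pass in limma, with an adjusted p of 0.845.

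Of the 12 reported target genes, 10 were tested, 0 passed in limma and 5 had an unadjusted p under 0.05 (CCND1, MYC, CD44, LEF1 and TBX3), beside 3185 of all 35766 tested symbols. MYC read 7.83 and 7.74 in MCF10.AT1 and 8.50, 8.63 and 8.72 in MCF10.AT1-R, a change of 0.83 with an adjusted p of 0.268, and 1.92e-08 with the trend option. CCND1, which encodes cyclin D1, read 7.81 and 7.94 against 8.38, 8.60 and 8.59, a change of 0.65 with an adjusted p of 0.545. CD44, an adhesion receptor, read 8.67 and 8.93 against 9.51, 9.48 and 9.42, a change of 0.67 with an adjusted p of 0.511. These 3 genes showed no overlap between the lines, and each is also under the control of other pathways. LEF1, a TCF/LEF factor that is itself a target, read 5.02 and 4.68 against 5.31, 5.63 and 5.81, without overlap, a change of 0.73 with an adjusted p of 0.412. JUN, a subunit of AP-1, also had no overlap, with a change of 0.44 and an adjusted p of 0.789. TBX3, a transcription factor, had the lowest change of the list, -0.85 with an adjusted p of 0.240. AXIN2, the target gene most often used as a readout of canonical signalling, was below the controls on all 5 arrays, with a change of 0.41 and overlapping values. SP5, whose promoter is printed above with 3 cores, had a change of -0.23. LEF1, JUN, TBX3, AXIN2 and SP5 were named after their values were seen, as were PTK7 and CTNNBIP1 above.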

How the data were processed

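The authors deposited log2 values of 6 arrays, made by RMA with the Bioconductor packages affy and oligo and not filtered. The genome build is not given in the sources used here. Array names state neither the line nor a replicate number. The lines were assigned from the study's principal component figure, which marks A01, A02 and A03 as sensitive and B02, B03 and B04 as resistant. A03 was left out of the comparison. The study's methods remove low and invariant genes without naming limits. Here probe sets were kept with a mean over 5 arrays above the median of transcript probe sets (1.88) and an SD above the lowest 25% (0.18). The 51457 left were fitted with limma 3.58.1 in R 4.3.3 (lmFit, eBayes, Benjamini-Hochberg, FDR 5%), which estimated a common SD. The script was tested on simulated data. Alternatives changed the arrays, filters, variance model, normalization, probe set rule, low values or threshold. Genes a filter removed were read from a fit without filters. The genes and lists were chosen with earlier results of these data known. Values on every array are given for genes above the controls on every array of a line whose arrays do not overlap, for those above on all 5 arrays with a mean over 5, and, per pathway list, for genes past FDR 5% and up to 3 more with the highest level. A further gene of the marker lists is not reported here.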

Additional observations from a re-analysis of the deposited data

Results flagged for a closer look

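On A03, the MCF10.AT1 array left out of the comparison, 17 of the 38 genes were above that array's negative controls. For 14 of the 38 genes A03 had the lowest value of the 6 arrays, and for 9 it had the highest. Of the genes above its controls, 6 had a higher log2 value on A03 than on every other array. DKK4 read 3.41, where the highest of the other arrays was 2.39 and none of them exceeded its controls. FZD4 read 4.53 against a highest value of 4.14. For WNT2 the value was 3.56 against 3.39, for WNT11 3.42 against 3.24, for WNT10B 4.84 against 4.71, and for FZD1 4.28 against 4.27. There is 1 such array, so these values have no replicate. The share of all symbols is not given for any of these counts, so they have no background beside them. Across all transcripts A03 correlated with the other arrays at a Pearson r of 0.779 to 0.795.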

How the results depend on the processing

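The 38 genes gave 0 calls in limma under every alternative that kept both MCF10.AT1 arrays, FDR 10% included. Few symbols passed at all in some of these. Of all 81496, 170 passed without filters. With the low-expression filter alone, which removed 33691 of these symbols before the fit, 175 passed. Apart from the trend option, the share of all symbols is not given for the others, so 0 there has no background beside it. The number above the controls, 22, was 6 against the 99th percentile and 22 to 24 with 1 array left out. The 10 genes with no overlap became 14 to 21 with 1 array left out (21 without A01, 19 without A02, 18 without B02, 16 without B04), where fewer arrays have to be separated. They became 8 with A03 added. The share of all symbols in these settings is not given here, so these counts have no background beside them. The 2 other pathway genes past FDR 5% became 0 with A03 added, with the low-expression filter alone, with no filter and with low values raised to the control level, and 8 with the trend option. With that option and the low-expression filter alone, an alternative chosen after the data were examined, there were also 8. With 1 array left out there were 0 to 2 (0 without A02, 1 without B04); the causes were not tested. Quantile normalization of the 5 arrays or centring on the median left the count at 2. Directions turned for DKK1 (2.04 with A03 added, 0.12 as the mean of its probe sets), WNT9B (0.60 with A03 added, 0.072 without A02, 0.02 without B02) and FZD5 (-0.0028 without B04). With 1 array left out the change ran from -0.0028 to 0.14 for FZD5 and from -0.12 to 0.072 for WNT9B. With 1 MCF10.AT1 array left, its spread was assumed to be that of the other line. No paired analysis was possible because the array names carry no replicate number of the labels.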

Other observations

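Transcripts named after genes of the family were looked up after the values above had been seen. The antisense transcripts WNT5A-AS1 and FZD10-AS1 and the pseudogene DKKL1P1 were not above the negative controls on any of the 5 arrays. Their log2 changes between the lines were 0.01, 0.21 and -0.11.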
